A study of Mus musculus with 8 samples.

Results

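A set of 10 protein-coding genes, grouped as chromatin and nuclear RNA genes, is described here: Hmgn1, Brwd1, Morc3, Chaf1b, Son, Paxbp1, Scaf4, Donson, N6amt1 and Setd4. Donson is known from the replication fork, and N6amt1 for methylating a translation release factor. All 10 genes lie in the mouse chromosome 16 segment carried in 3 copies by Ts65Dn mice. They were chosen by function and by position, with earlier results of these data known. They were taken as the probe sets annotated to exactly 1 gene symbol among those 10 names. Each of the 10 genes has 1 such probe set, so none had to be picked among several, and together they are 10 of 19938 genes tested and 10 of the 129 measured genes of the segment. Arrays came from 4 male Ts65Dn mice, a model of Down syndrome, and from 4 male wild-type (WT) colony controls of the strain B6EiC3SnF1/J, which mixes B6 and C3H background. All were about 5 months old, and the soleus, a calf muscle rich in slow fibres, was taken at rest under pentobarbital. Each mouse gave 1 Affymetrix array, whose values are log2 RMA values, so that 1 unit is a doubling of brightness. Ts65Dn mice also carry the centromeric end of chromosome 17 in 3 copies, and every Ts65Dn animal carries both segments, so that the effect of a single gene's extra copy cannot be told apart from that of the others.

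Chromatin packs DNA around histones, and proteins that bind, read, load or modify histones set how open it is. Hmgn1 binds nucleosomes and loosens them, Brwd1 reads acetylated histones, and Morc3 is an ATPase that reads methylated histone H3 and gathers in nuclear PML bodies. Chaf1b is a subunit of chromatin assembly factor 1, which loads histones behind the replication fork, where Donson also works. Son is a core protein of nuclear speckles and is needed for efficient splicing, Scaf4 binds the tail of RNA polymerase II and in human cells prevents early transcript cleavage together with Scaf8, and Paxbp1 links the muscle precursor factors Pax3 and Pax7 to a histone methyltransferase in mouse. N6amt1, with its partner Trmt112, methylates the translation release factor eRF1, and Setd4 is a SET domain methyltransferase. Most of these proteins work in every cell type, while Chaf1b and Donson are best known from dividing cells, which are few in adult muscle.

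Among the 10 genes 3 neighbouring pairs are described together, since in each pair 1 gene was called higher in Ts65Dn and the gene next to it was not. The sequences before the transcription start are shown for Morc3 and its neighbour Chaf1b, for Son, and for Hmgn1, the neighbour of Brwd1. They are from RefSeq on build GRCm38.p6, written 5′ to 3′ on the strand of the gene, and end at the last base before the annotated gene. All 10 genes matched the promoter table. For Brwd1, Donson, Scaf4 and Setd4 the start used for the window lies inside the annotated gene span, and these windows are not shown. Capitals mark the GC box GGGCGG, the CCAAT box and the ETS core TTCCGG, each on either strand.
Morc3 (chr16:93831871-93832120, plus strand): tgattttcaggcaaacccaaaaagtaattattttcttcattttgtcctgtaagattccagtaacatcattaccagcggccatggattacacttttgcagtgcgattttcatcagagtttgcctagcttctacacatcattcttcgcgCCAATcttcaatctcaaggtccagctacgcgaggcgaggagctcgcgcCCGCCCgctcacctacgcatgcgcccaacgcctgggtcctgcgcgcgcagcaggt
Chaf1b (chr16:93883651-93883899, plus strand): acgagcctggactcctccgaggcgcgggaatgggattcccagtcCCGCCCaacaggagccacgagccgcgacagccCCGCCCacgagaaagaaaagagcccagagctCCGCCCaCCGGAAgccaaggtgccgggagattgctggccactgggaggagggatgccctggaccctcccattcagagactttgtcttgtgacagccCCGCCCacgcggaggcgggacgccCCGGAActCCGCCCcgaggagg
Son (chr16:91647574-91647823, plus strand): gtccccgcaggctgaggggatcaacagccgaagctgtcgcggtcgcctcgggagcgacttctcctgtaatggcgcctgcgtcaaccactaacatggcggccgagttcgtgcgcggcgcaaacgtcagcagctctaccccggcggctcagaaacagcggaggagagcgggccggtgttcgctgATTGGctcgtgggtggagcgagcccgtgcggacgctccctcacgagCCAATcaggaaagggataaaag
Hmgn1 (chr16:96127726-96127975, minus strand): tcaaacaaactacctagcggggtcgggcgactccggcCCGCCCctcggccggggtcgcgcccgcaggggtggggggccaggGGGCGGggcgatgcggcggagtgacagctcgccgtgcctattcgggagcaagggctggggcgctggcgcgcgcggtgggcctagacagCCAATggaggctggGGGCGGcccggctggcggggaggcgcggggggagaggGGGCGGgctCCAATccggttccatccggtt
In the windows of 300 bases (250 before the start and 50 after it) a GC box was found in 8 of the 10 genes, against 35.7% of all 32851 windows, a CCAAT box in 4 of 10 against 37.4%, and TTCCGG in 3 of 10 against 14.9%. The cyclic AMP element TGACGTCA (1.79% of all windows) and the E2F-type sequence TTTGGCGC (0.514%) were found in 0 of 10, and TTTCCCGC (1.07%) in 1, Scaf4. The number of CpG dinucleotides ran from 11 for N6amt1 to 52 for Brwd1, with a median of 7 over all windows. All 10 genes thus lay above that median, and motif shares among windows with a like number of CpG were not computed. The shares are of windows, while the counts are of genes, and the 10 genes have 11 windows. Morc3 had 20 CpG and its neighbour Chaf1b 30, Son had 31 and Donson 46, and Brwd1 had 52 and Hmgn1 37, so the called gene had fewer CpG in 2 of the 3 pairs. A match of letters does not show that a factor binds.

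Taken as a whole, the arrays of the 2 groups differed. Array medians ran from 4.23 to 4.29 in Ts65Dn and from 4.37 to 4.56 in WT, and interquartile ranges from 3.01 to 3.12 in Ts65Dn and from 2.62 to 2.93 in WT, the lowest being those of WT arrays 2 (2.74) and 3 (2.62). The median log2 fold change over all genes was -0.10, and it was 0.10 with each array centred on its median. Each fold change below is therefore given as fitted by limma on all 8 arrays, and where it matters also level-matched (relative to the 100 genes outside the 3-copy segments nearest in mean level) and without WT arrays 2 and 3. Over all genes 462 were called higher and 587 lower at an adjusted p under 0.05 by limma, 951 and 57 with median centring, 117 and 18 with cyclic loess, and 73 and 16 with level matching. Fibre markers were bright (means from 10.6 to 12.4 over 5 genes for skeletal muscle, from 9.27 to 12.3 over 7 slow-fibre genes), and 0 of these 12 genes were called. Of the markers of other cells, 3 were called, all higher: the macrophage gene Cd68, the endothelial gene Kdr and the fibroblast gene Pdgfra. Over all genes 2.32% were called higher. Within these lists signs were mixed, with positive fold changes for 4 of 6 macrophage, 4 of 5 endothelial and 3 of 5 fibroblast markers. The mean of 6 macrophage markers ran from 5.03 to 5.55 in Ts65Dn and from 4.68 to 4.98 in WT, that of 5 endothelial markers from 5.75 to 6.21 in Ts65Dn and from 5.24 to 5.72 in WT, and that of 5 fibroblast markers from 6.87 to 7.07 in Ts65Dn and from 6.59 to 6.76 in WT. The mean of 4 satellite cell markers ran lower, from 4.61 to 4.77 in Ts65Dn and from 4.88 to 5.12 in WT, with 0 called by limma. Of these 4, with gene means from 4.41 to 4.98, 0 had a positive fold change. The same held for 0 of 5 dividing cell, 0 of 3 erythroid and 0 of 2 Schwann cell markers, and for 1 of 4 adipocyte and 1 of 4 leukocyte markers. Pax7, 1 of the satellite cell markers, had a log2 fold change of -0.29 on all 8 arrays and 0.02 level-matched. The part of these cells in the results, and that of the array scaling in the marker means, was not tested. In whole muscle fewer cells of a type cannot be told apart from less RNA per cell.

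Morc3, Brwd1 and Son, 3 of the 10 genes, were higher in Ts65Dn soleus, by 3.14, 2.63 and 1.91 times, and 0 were called lower. Among all genes 2.32% were called higher and 2.94% lower, or 5.26% in either direction, and among the genes above the median level 4.26% were called higher. The other 7 genes were not called, and their log2 fold changes ran from 0.61 for N6amt1 to -0.43 for Setd4. The median over the 10 genes was 0.34, beside -0.10 for all genes and -0.04 for the other 119 measured genes of the segment. Of the 10 genes 6 had an unadjusted p under 0.05, against 34.8% of all genes.

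**Figure D1:**
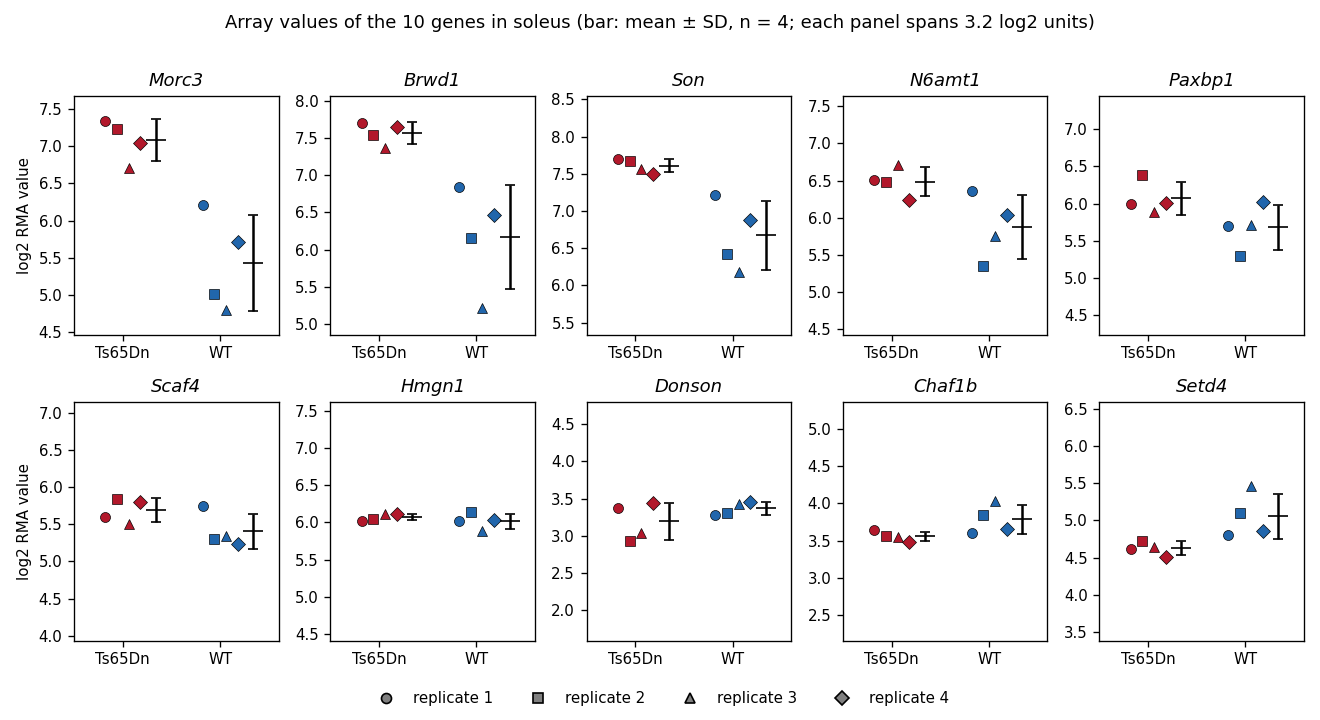
Log2 RMA value (vertical axis) of each gene in the 4 Ts65Dn arrays (red, left) and the 4 WT arrays (blue, right), with a marker shape for each replicate number and the mean ± SD beside each group. Morc3, Brwd1 and Son show 4 Ts65Dn values above all 4 WT values, Setd4 shows the opposite, and the groups overlap for the other 6 genes.

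Among the proteins that bind or read nucleosomes, Morc3 had the largest change of the 10. It was at 7.34, 7.23, 6.70 and 7.05 in Ts65Dn and at 6.21, 5.01, 4.79 and 5.71 in WT (log2 values, replicates 1 to 4). All 4 Ts65Dn values lay above all 4 WT values, and the lowest WT values were those of arrays 3 and 2. The means were 7.08 ± 0.28 in Ts65Dn and 5.43 ± 0.65 in WT (SD, n = 4), which gives a fold change on the log2 scale of 1.65 with a 95% interval from 1.02 to 2.28 (limma adjusted p = 0.0456). Only 2 of the 129 segment genes had a larger fold change than Morc3. The value was 1.47 level-matched (limma adjusted p = 0.0449), and 1.12 without WT arrays 2 and 3 (limma adjusted p = 0.174).

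Brwd1 was at 7.71, 7.53, 7.37 and 7.64 in Ts65Dn and at 6.85, 6.15, 5.21 and 6.46 in WT. Again the groups did not overlap, and WT array 3 was the lowest by a wide gap. The means were 7.56 ± 0.15 in Ts65Dn and 6.17 ± 0.70 in WT (SD, n = 4), which gives a fold change on the log2 scale of 1.39 with an interval from 0.76 to 2.03 (limma adjusted p = 0.0456). It was 1.05 level-matched (limma adjusted p = 0.0603) and 0.91 without WT arrays 2 and 3 (limma adjusted p = 0.174), so both changes ended the call.

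Hmgn1, next to Brwd1 on the chromosome, was not called. Its values were 6.03, 6.05, 6.11 and 6.11 in Ts65Dn and 6.02, 6.14, 5.89 and 6.03 in WT. The groups overlapped in a range narrower than that of any other of the 10 genes, with means of 6.08 ± 0.04 in Ts65Dn and 6.02 ± 0.10 in WT (SD, n = 4). The log2 fold change was 0.06, with an interval from -0.18 to 0.29 (limma adjusted p = 0.724), and -0.08 level-matched. The ratio of 3 copies to 2 is 0.58 on this scale, which lies above that interval. Hmgn1 is known to have many processed copies in mammalian genomes, and whether probes of this set also match such copies was not tested.

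Of the pair that works at the replication fork, neither was called and both were dim. Chaf1b was at 3.64, 3.56, 3.55 and 3.48 in Ts65Dn and at 3.61, 3.85, 4.04 and 3.65 in WT. Of the WT values 3 lay above every Ts65Dn value, and WT arrays 3 and 2 were the highest. The log2 fold change was -0.23 with an interval from -0.51 to 0.05 (limma adjusted p = 0.211), and 0.04 level-matched, so its sign turned with the scaling. Donson was at 3.38, 2.93, 3.03 and 3.44 in Ts65Dn and at 3.29, 3.30, 3.43 and 3.45 in WT. Ts65Dn arrays 2 and 3 were lower than every WT array, and the other 2 lay inside the WT range. The log2 fold change was -0.17 with an interval from -0.48 to 0.14 (limma adjusted p = 0.383), and 0.04 level-matched. Only 26.3% of all genes were dimmer than Chaf1b and 19.2% dimmer than Donson, and detection calls were not used here. The 5 measured markers of dividing cells were dim as well, with means per gene from 2.37 to 4.88, and their mean per array ran from 3.30 to 3.57 in Ts65Dn and from 3.50 to 3.77 in WT.

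Among the 3 proteins of RNA processing, Son was called. It was at 7.70, 7.67, 7.57 and 7.50 in Ts65Dn and at 7.22, 6.43, 6.18 and 6.88 in WT. The groups did not overlap, and the Ts65Dn values were close together. The means were 7.61 ± 0.09 in Ts65Dn and 6.68 ± 0.46 in WT (SD, n = 4), which gives a fold change on the log2 scale of 0.93 with an interval from 0.48 to 1.38 (limma adjusted p = 0.0456). It was 0.66 level-matched (limma adjusted p = 0.0692) and 0.56 without WT arrays 2 and 3 (limma adjusted p = 0.194), and neither passed.

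Paxbp1 was at 5.996, 6.39, 5.89 and 6.01 in Ts65Dn and at 5.69, 5.29, 5.71 and 6.02 in WT. WT array 4 lay within the Ts65Dn range, and the other 3 WT arrays lay below it. The log2 fold change was 0.39 with an interval from 0.01 to 0.77 (limma adjusted p = 0.135). Scaf4 was at 5.59, 5.84, 5.51 and 5.80 in Ts65Dn and at 5.74, 5.30, 5.34 and 5.23 in WT. Here WT array 1 was within the Ts65Dn range. The log2 fold change was 0.28 with an interval from -0.04 to 0.61 (limma adjusted p = 0.184). Without WT arrays 2 and 3 the values were 0.21 for Paxbp1 and 0.20 for Scaf4.

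The methyltransferases had fold changes of opposite sign, and neither passed. N6amt1 was at 6.51, 6.48, 6.71 and 6.24 in Ts65Dn and at 6.36, 5.35, 5.76 and 6.03 in WT. Of the Ts65Dn values 3 lay above the WT range, and WT array 1 lay above Ts65Dn array 4. The log2 fold change was 0.61 with an interval from 0.16 to 1.06 (limma adjusted p = 0.0747), 0.45 level-matched and 0.29 without WT arrays 2 and 3, and it passed without WT array 1, at 0.77 (limma adjusted p = 0.0356). Setd4 was at 4.62, 4.73, 4.65 and 4.51 in Ts65Dn and at 4.80, 5.11, 5.46 and 4.86 in WT. All 4 Ts65Dn values lay below all 4 WT values, with a log2 fold change of -0.43 and an interval from -0.77 to -0.09 (limma adjusted p = 0.0880). It was -0.17 level-matched, with an interval from -0.42 to 0.09, and -0.20 without WT arrays 2 and 3. Only 12 segment genes had a lower fold change than Setd4.

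Groups that did not overlap were thus seen for 3 genes that were higher and 1 that was lower. Over all genes the groups did not overlap for 6.81% in the higher direction and 15.9% in the lower direction, so that a single gene lower in this sense is below the share over all genes. Within WT, the order of the 4 arrays was the same for Morc3, Brwd1 and Son, with array 1 highest, then 4, 2 and 3, and it was the order of the interquartile range of the arrays. For Chaf1b and Setd4 the WT order was exactly turned round. The part of that array property in the results was not tested.

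**Figure D2:**
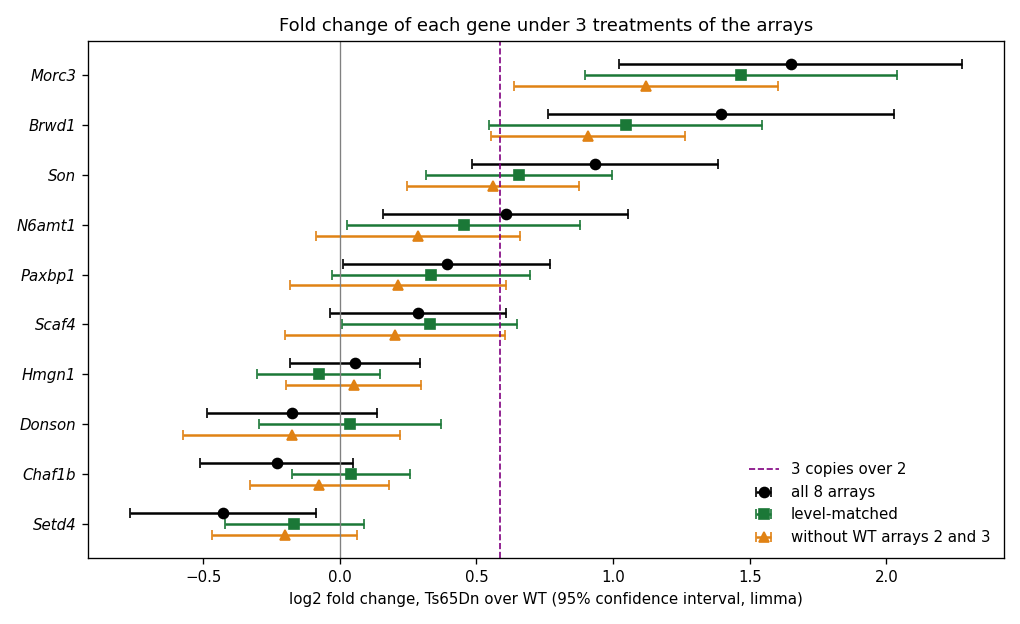
Log2 fold change of Ts65Dn over WT (horizontal axis) with limma's 95% confidence interval for each gene, on all 8 arrays (black circles), level-matched (green squares) and without WT arrays 2 and 3 (orange triangles). The dashed line is 0.58, the ratio of 3 copies to 2, and the Morc3 intervals lie above it in all 3 versions, while those of Hmgn1, Donson, Chaf1b and Setd4 lie below it in all 3.

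The intervals were set against 0.58, the log2 ratio of 3 copies to 2. On all 8 arrays 2 intervals lay above it (Morc3 and Brwd1), 4 included it (Son, N6amt1, Paxbp1 and Scaf4) and 4 lay below it (Hmgn1, Donson, Chaf1b and Setd4). Level-matched, and also without WT arrays 2 and 3, these counts were 1, 5 and 4, with Brwd1 among those that included it. For Morc3 the lower bound was 0.90 level-matched and 0.64 without WT arrays 2 and 3. Chaf1b and Donson are dim probe sets, and how far background lowers their fold changes was not tested.

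**Figure D3:**
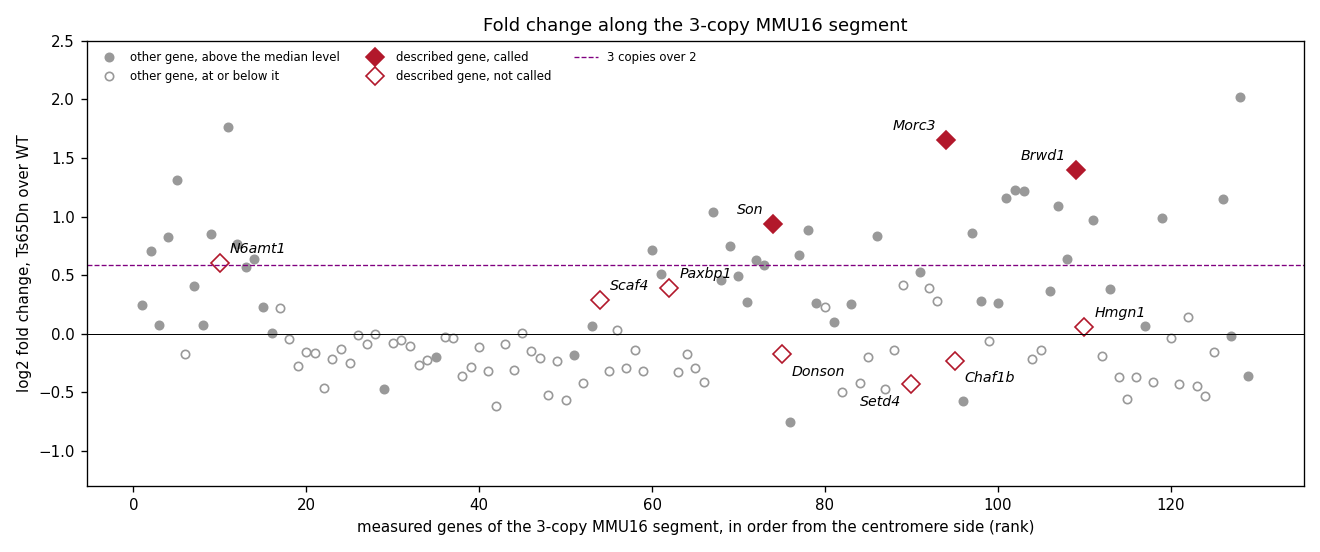
Log2 fold change (vertical axis) of the 129 measured genes of the 3-copy chromosome 16 segment in gene order (horizontal axis, rank from the centromere side), with the described genes as diamonds, filled where called. Son at 0.93, Morc3 at 1.65 and Brwd1 at 1.39 each stand directly beside a gene of the set near or below 0: Donson at -0.17, Chaf1b at -0.23 and Hmgn1 at 0.06.

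In gene order the 10 genes are spread over the segment, from N6amt1 as gene 10 of 129 to Hmgn1 as gene 110. Among the other 119 genes, 18 were called higher and 3 lower, and the 18 all lay above the median level of all genes. Of the genes above that level, 3 of 8 described here and 18 of 53 others were called higher. Their median fold changes were 0.50 and 0.53, and level-matched 0.39 and 0.35. The 2 dim genes described here had a median of -0.20, as did the 66 other dim genes (-0.20). These medians and shares are close to each other and were not tested.

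The 3 adjacent pairs were compared by the difference of the log2 values of both genes in each array, which is not a difference in level. Chaf1b and Donson are dim and were not shown to be above background, so in their pairs the difference largely restates that of Morc3 and of Son, and the pair of Brwd1 and Hmgn1 is the one with both genes above the median level. For Morc3 over Chaf1b, the difference was between 3.15 and 3.71 in Ts65Dn and between 0.76 and 2.60 in WT, so the fold changes differed by 1.88. For Brwd1 over Hmgn1 it was between 1.26 and 1.68 in Ts65Dn and between -0.68 and 0.83 in WT, a difference of 1.34. For Son over Donson it was between 4.06 and 4.74 in Ts65Dn and between 2.76 and 3.93 in WT, a difference of 1.11. All 4 Ts65Dn arrays exceeded all 4 WT arrays in each pair. The exact two-sided permutation p was 0.0286 each, the smallest that 70 splits allow, and 0.0286 adjusted over the 3 pairs. Morc3, Brwd1 and Son by themselves already had all 4 Ts65Dn values above all 4 WT values. The pairs were described with these calls known, so these p-values largely restate that separation and are no separate test of the neighbours. Level-matched, the differences were 1.43, 1.12 and 0.62, with exact permutation p-values of 0.0286, 0.0286 and 0.0571 (0.0429, 0.0429 and 0.0571 adjusted over the 3 pairs). Without WT arrays 2 and 3 they were 1.19, 0.86 and 0.74, with an exact permutation p of 0.0667 each, the smallest that 6 arrays allow. Son and Donson lie on opposite strands and overlap at their ends in the RefSeq annotation, and whether either probe set lies in the overlap was not examined.

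The other measured neighbours also varied. Ltn1, a ubiquitin ligase of stalled ribosomes beside N6amt1, was at 1.76 (limma adjusted p = 0.0477), and Adamts5, on the other side, was at 0.85 and did not pass. Gart, a purine synthesis enzyme beside Son, was called at 0.58 (limma adjusted p = 0.0497). Get1 beside Hmgn1 was at 0.97, Psmg1 beside Brwd1 at 0.64, Cbr1 and Runx1 around Setd4 at 0.53 and 0.41, Synj1 beside Paxbp1 at 0.51, Dop1b beside Morc3 at 0.28 and Sod1 beside Scaf4 at 0.07, and none of these 7 passed. Negative values were those of Hunk (-0.32) beside Scaf4, 4932438H23Rik (-0.33) beside Paxbp1, Cldn14 (-0.57) beside Chaf1b and Gm10785 (-0.76) beside Donson, which did not pass either. Setd4 thus had a negative value between 2 neighbours with positive ones.

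Partners and relatives of the 10 genes that are not in the chromosome 16 segment were described with 11 lists. Of 226 listed genes 215 were measured, and 11 were called higher and 1 lower. Over all genes 2.32% were called higher and 2.94% lower, and among genes above the median level, where 175 of the 215 lay, 4.26% were called higher, so the lists' count is near the share at their level. Their median log2 fold change was 0.23 (level-matched 0.14). Genes above the median level outside the segments had a median of 0.11. An unadjusted p under 0.05 by limma was seen for 78 of the 215 list genes. It was seen for 34.8% of all genes, and for 3712 of the 9889 genes above the median level outside the segments. The lists' count is near these shares, beside which the unadjusted counts per list below have to be read. Against 12 calls on all 8 arrays, the lists had 1 with level matching, 2 with cyclic loess, and 0 with quantile normalization and without WT arrays 2 and 3, where the median of the 215 was 0.12. The number of calls was also 0 when any 1 of the Ts65Dn arrays, or WT array 2 or 3, was left out, 44 without WT array 1 and 27 without WT array 4.

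**Figure D4:**
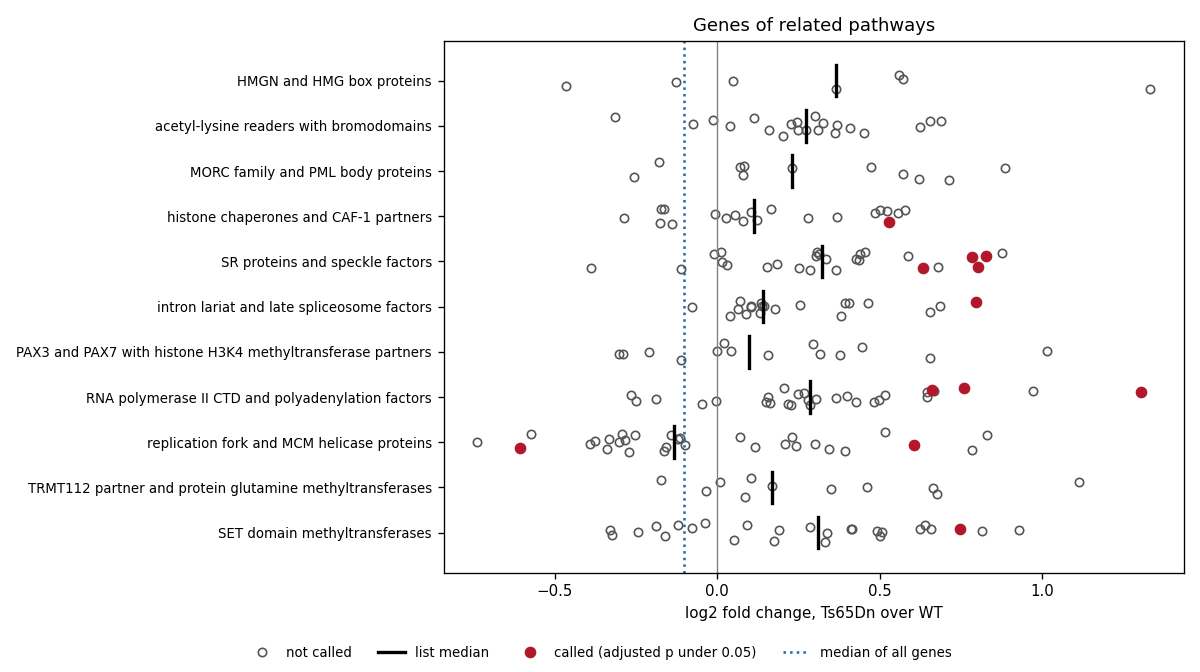
Log2 fold change of Ts65Dn over WT (horizontal axis) of each measured gene in 11 lists of related proteins, with called genes in red, the list median as a black bar and the median of all genes (-0.10) dotted. The 4 called genes of the SR protein and speckle list lie between 0.63 and 0.83, and Scaf8 is the point at 1.30.

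In the list of SR proteins and speckle factors 4 of 26 measured genes were called higher and 0 lower, 12 had an unadjusted p under 0.05, and the median was 0.32 (level-matched 0.11). The called genes were the kinase Clk3, which phosphorylates SR proteins, the speckle proteins Thrap3 and Bclaf1, and Srrm2, which builds the speckle together with Son. Clk3 averaged 7.30 ± 0.23 in Ts65Dn and 6.50 ± 0.15 in WT (log2, SD, n = 4), which gives a difference of 0.80 (level-matched 0.49). Srrm2 averaged 8.40 ± 0.22 in Ts65Dn and 7.57 ± 0.42 in WT, a log2 fold change of 0.83 (level-matched 0.61). Bclaf1 was at 0.79 (level-matched 0.52) and Thrap3 at 0.63 (level-matched 0.29), and limma adjusted p-values over the 4 ran from 0.0456 to 0.0477. Clk3 was at 0.86 without WT arrays 2 and 3, and the other 3 between 0.49 and 0.57, but limma called 0 genes of this list there and 0 with level matching, cyclic loess or quantile normalization.

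For the spliceosome, 1 of 20 genes was called higher, 5 had an unadjusted p under 0.05, and the median was 0.14. It was Prpf8, the core protein of the spliceosome, at 7.57 ± 0.06 in Ts65Dn and 6.77 ± 0.44 in WT (log2, SD, n = 4), which gives a difference of 0.80 (level-matched 0.53; limma adjusted p = 0.0475), which was 0.46 without WT arrays 2 and 3. Slu7 (0.65), the helicase Snrnp200 (0.69) and Cdc5l (0.39) did not pass. Gcfc2, the closest relative of Paxbp1, was dim and had a log2 fold change of 0.13. Of 14 genes for Pax3, Pax7 and H3K4 methyltransferase subunits 0 were called by limma, 4 had an unadjusted p under 0.05, and the median was 0.10. The methyltransferases Kmt2d (1.02), Kmt2a (0.66) and Kmt2c (0.45) and the scaffold Men1 (-0.30) had the smallest p-values.

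Scaf4's list, of RNA polymerase II tail and polyadenylation factors, had 3 of 29 genes called higher and 0 lower, 10 at an unadjusted p under 0.05, and a median of 0.28 (level-matched 0.26). Scaf8, the relative of Scaf4, averaged 8.001 ± 0.073 in Ts65Dn and 6.70 ± 0.55 in WT (log2, SD, n = 4), which gives a difference of 1.30 (limma adjusted p = 0.0456), which was 0.87 without WT arrays 2 and 3. It lies in the 3-copy segment of chromosome 17, so both relatives are in 3 copies in these mice. The kinase Cdk12, which phosphorylates the polymerase tail, was at 0.76 (level-matched 0.80) and Rprd2, which binds it, at 0.66 (level-matched 0.36), with a limma adjusted p of 0.0475 each. The nuclease Cpsf3 (0.64) did not pass.

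No relative of Hmgn1, Brwd1 or Morc3 in these lists was called, and values of both signs were seen, with 5 of 7, 18 of 21 and 9 of 11 positive. In the HMG list 0 of 7 genes were called by limma and 5 had an unadjusted p under 0.05. Hmgn2 was at 0.37, Hmgn3 at 0.56 and Hmgn5 at 0.05, and the HMG box proteins Hmgb1 and Hmgb2 were at 1.33 and 0.57, while Hmga2 was at -0.47. For Hmgb1 the value was 0.49 without WT arrays 2 and 3. In the bromodomain list 0 of 21 were called by limma, 6 had an unadjusted p under 0.05, and the median was 0.27. The Brwd1 relatives Phip and Brwd3 were at 0.69 and 0.25, beside Brd8 (0.45), Trim24 (0.36) and Bptf (0.41). In the MORC and PML body list 0 of 11 were called by limma and 5 had an unadjusted p under 0.05. Morc4 was at 0.57, Morc2a at 0.62 and Morc2b, named after its value was seen, at -0.26, the chromatin remodeller Atrx at 0.71 and the kinase Hipk2 at 0.47.

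Histone chaperones, the partners of Chaf1b, had 1 of 20 called higher and 0 lower, with 3 at an unadjusted p under 0.05 and a median of 0.11. It was Ubn2, a subunit of the chaperone complex that loads histone H3.3 outside of replication, at 0.53 (level-matched 0.18; limma adjusted p = 0.0461). Chaf1a, the large subunit that pairs with Chaf1b, was at -0.29 (level-matched 0.0026; limma adjusted p = 0.368), and Supt6 (0.58), Nap1l1 (0.49) and Supt16 (0.56) did not pass. The replication list, with the partners of Donson, differed in sign. Of 30 genes 1 was called higher and 1 lower, 11 had an unadjusted p under 0.05, and the median was -0.13 (level-matched 0.03). Rpa2, a subunit of the single-strand binding protein, averaged 6.87 ± 0.09 in Ts65Dn and 6.26 ± 0.08 in WT (log2, SD, n = 4), which gives a difference of 0.61 (level-matched 0.30). The helicase Recql4 averaged 4.26 ± 0.11 in Ts65Dn and 4.87 ± 0.19 in WT, a log2 fold change of -0.61 (level-matched -0.36), with a limma adjusted p of 0.0456 for both genes. Timeless (-0.74) and Mcm10 (-0.57) did not pass.

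In the list around N6amt1, 0 of 11 genes were called by limma, 4 had an unadjusted p under 0.05, and the median was 0.17. The release factor Etf1, the substrate of N6amt1, was at 0.46 and its companion Gspt1 at 0.68, and the methyltransferases Thumpd3 and Alkbh8, which also pair with Trmt112, were at 0.67 and 1.11. Of 26 SET domain methyltransferases 1 was called higher and 0 lower, 13 had an unadjusted p under 0.05, and the median was 0.31. It was the H3K36 methyltransferase Nsd2, at 5.85 ± 0.14 in Ts65Dn and 5.11 ± 0.23 in WT (log2, SD, n = 4), which gives a difference of 0.75 (level-matched 0.82; limma adjusted p = 0.0456), which was also 0.75 without WT arrays 2 and 3. With level matching, and without those arrays, limma called 0 genes of this list. Setd5 (0.82), Setdb1 (0.62), Ezh2 (0.64) and Setd3 (0.33) did not pass.

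Genes with the most similar array pattern were found by the mean absolute difference of gene-centred log2 values over the 8 arrays. For Morc3 they were Osbpl8 (0.15) and Sdc2 (0.16), for Brwd1 Dmxl1 (0.11) and Scaf8 (0.14), and for Son Vps13c (0.06) and Prpf8 (0.08), against medians over all genes of 0.89, 0.77 and 0.55. The nearest were Opa1 and Jmy to N6amt1, Olfr1166 and Ccdc127 to Paxbp1, Snord42b and Tax1bp3 to Scaf4, and Itm2b and Sgca to Hmgn1. Ly6g6g and Cntnap2 were nearest to Chaf1b, Gstt2 and Fbxo46 to Donson, and Gata5 and Cacng2 to Setd4. Since the group difference and the array property named above are part of the pattern, likeness is a description only.

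**Figure D5:**
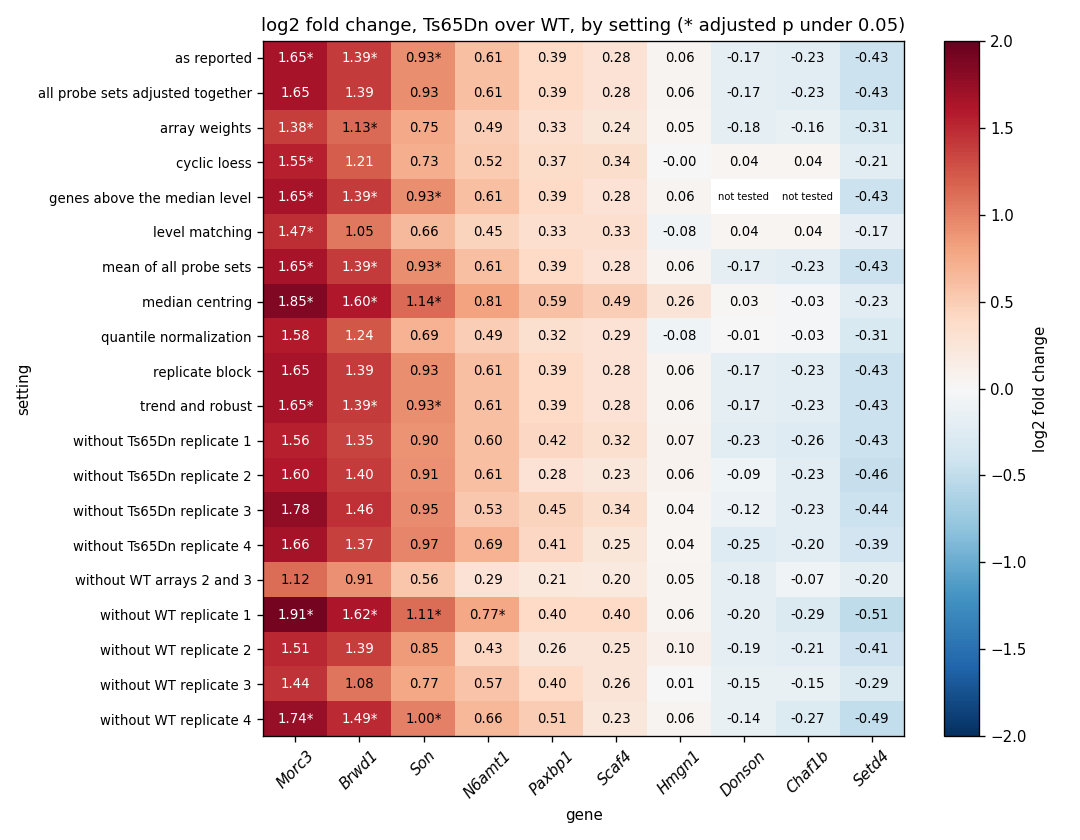
Log2 fold change of Ts65Dn over WT for each gene (columns) as reported (top row) and under 19 alternatives (rows), coloured from blue (lower) to red (higher), with a star where limma's adjusted p was under 0.05. Morc3, Brwd1 and Son are positive in every row, with stars in 9, 7 and 6 of the 19 alternatives, and Hmgn1, Donson and Chaf1b change sign in some rows.

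Over these 19 alternatives Morc3 ran from 1.12 to 1.91, Brwd1 from 0.91 to 1.62 and Son from 0.56 to 1.14. N6amt1 ran from 0.29 to 0.81, Paxbp1 from 0.21 to 0.59 and Scaf4 from 0.20 to 0.49, all positive. Setd4 was negative in all 19, from -0.51 to -0.17. As reported the 3 calls had an adjusted p of 0.0456 by limma, and all 3 were lost when any 1 of the Ts65Dn arrays, or WT array 2 or 3, was left out.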

How the data were processed

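Soleus RNA of 4 Ts65Dn and 4 WT mice was measured, with 1 array per mouse. Expression Console 1.1 (Affymetrix) and RMA are named in the submitters' processing notes, and the labels call the values gene-level. The deposited values were taken to be log2, a scale inferred from their range. They are not centred by gene. The 4 Ts65Dn columns had medians of 4.24, 4.26, 4.29 and 4.23, and the 4 WT columns medians of 4.39, 4.52, 4.56 and 4.37. The authors' build is not given in the sources used here.

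Of 35556 probe sets 21789 have 1 gene symbol, 1621 several and 12146 none in the platform annotation. Symbols of 21698 were updated by Entrez identifier with the RefSeq table of GRCm38.p6, which was otherwise used only for gene order and promoter sequence, and 91 kept the array's symbol. The brightest probe set per gene was used, which left 19938 genes. The segment runs from Mrpl39 to the distal end of chromosome 16 in gene order. Each gene was fitted by group alone in limma 3.58.1 (lmFit, eBayes; R 4.3.3). Two-sided p-values were adjusted by Benjamini-Hochberg over all genes and called under 0.05. The fit was tested on simulated data. Python 3.11.15 with pandas 2.3.3 and matplotlib 3.10.9 made tables and plots. Precision is limited by having 4 arrays per group.

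The genes and the lists were chosen with earlier results of these data known. Named genes are the 10, up to 4 genes with the smallest p per list, 11 relatives fixed by name, measured neighbours, and the 2 genes of most similar pattern. The adjacent pairs are those in which both genes are among the 10. They were described together because in each a called gene stood beside a gene that was not called. Their p-values are therefore not those of pairs picked without knowledge of the calls. Protein features were planned and are not given, since no protein sequences were used here. The same-numbered arrays of both groups had correlations of their deviations from the group means of 0.03, 0.01, 0.09 and 0.07, so the replicate numbers were not taken as pairs. Alternatives covered normalization, level matching, dim genes, probe sets, block, array weights, variance model, threshold, adjustment and left-out arrays.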

Additional observations from a re-analysis of the deposited data

How the results depend on the processing

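Of the 10 genes 3 were called higher as reported, 1 with cyclic loess and with level matching, and 0 with quantile normalization, with all probe sets adjusted together and without WT arrays 2 and 3. Leaving out single arrays gave between 0 and 4, with 4 without WT array 1, 3 without WT array 4 and 0 when any 1 of the other 6 was left out. Over all genes the count of 1049 became 236 with array weights, 135 with cyclic loess, 436 among genes above the median level, 89 with level matching, 1 with quantile normalization, 1 with all probe sets adjusted together, 1 without WT arrays 2 and 3, and 4961 at an adjusted p under 0.1, and it ran from 0 to 2865 when single arrays were left out. With the replicate number as a block, 0 of the 10 genes and 0 of all genes were called, with adjusted p-values of 0.0530 for Morc3, Brwd1 and Son, but the numbers were not found to pair the arrays. The median fold change of the 10 genes was 0.34, 0.50 among those above the median level, 0.54 with median centring, 0.21 without WT arrays 2 and 3, and between 0.26 and 0.40 with single arrays left out. Signs turned for Hmgn1 (-0.0033 with cyclic loess, -0.0775 level-matched and -0.0795 with quantile normalization), Chaf1b (0.0386 with cyclic loess and 0.0407 level-matched) and Donson (0.0436 with cyclic loess, 0.0365 level-matched and 0.0288 with median centring). Chaf1b and Donson were not tested among genes above the median level, since both are below it. The cause of these changes was not tested.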

Other observations

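The spread between WT arrays was larger than that between Ts65Dn arrays for 9 of the 10 genes, Donson being the exception, against 67.3% of all genes and 68.9% of the other 119 genes of the segment. The median SD over the 10 genes was 0.15 in Ts65Dn and 0.30 in WT on the log2 scale, beside 0.17 in Ts65Dn and 0.23 in WT over all genes. For Brwd1 the SD was 0.15 in Ts65Dn and 0.70 in WT, and for Son 0.09 in Ts65Dn and 0.46 in WT. These are descriptions without a test.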
